A study of Rattus norvegicus with 10 samples.

Results

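The genes described here are the collagen chains and the enzymes that hydroxylate and crosslink them, measured in rat liver. They were chosen by name: protein-coding genes whose symbol is Col, a number, a and a number, plus the lysyl oxidases Lox and Loxl1 to Loxl4, the lysyl hydroxylases Plod1 to Plod3 and the prolyl hydroxylases P4ha1 and P4ha2. The rule found 52 of the 32883 genes in the files, 42 collagen chains and 10 enzymes. Of these, 21 reached 1 TPM or more in 5 or more of the 10 livers and were tested, 14 chains and 7 enzymes, among 11083 genes tested in all. Col1a2 and Col6a3 were not among the members and were not analysed here.

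Poly(A) RNA was sequenced from livers of male rats, all 5 weeks old: 5 Eisai hyperbilirubinemic rats (EHBR) and 5 Sprague-Dawley rats (SD), numbered 1 to 5 in each strain. EHBR is known as a mutant line derived from SD that lacks Mrp2, the canalicular pump encoded by Abcc2, so the loss of Mrp2 and any other strain difference cannot be told apart. No treatment, litter or housing is named in the labels. Levels are in TPM, a transcript abundance scaled by gene length and library size that can be compared between genes, and ± gives the standard deviation over 5 samples. Differences are EHBR minus SD on the log2(TPM + 1) scale, which understates the change of genes near 1 TPM, and adjusted p is from limma with Benjamini-Hochberg adjustment over all 11083 genes.

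Collagens are built from chains that wind into a helix in the endoplasmic reticulum. Prolyl hydroxylases stabilise that helix, lysyl hydroxylases prepare lysines for sugar attachment and crosslinking, and lysyl oxidases crosslink the secreted chains outside the cell. In liver, fibrillar collagens come mainly from stellate cells and portal fibroblasts, while the sinusoidal lining carries type IV collagen without a dense basement membrane, and type XVIII collagen is also made by hepatocytes. Scarring of the liver is known for an excess of fibrillar collagen and its crosslinks.

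The samples held 13.8 to 19.6 M reads assigned to genes. Abcc2 was lower in every EHBR sample (10.1 to 17.6 TPM) than in any SD sample (60.0 to 271 TPM), as the strain labels imply. In earlier results from these data, samples 4 and 5 of both strains stood apart from samples 1 to 3, so each strain difference below is also given within these parts. The share of TPM in ribosomal protein genes was at most 2.62% in any sample numbered 1 to 3, at least 4.03% in SD samples 4 and 5 and at least 3.14% in EHBR samples 4 and 5. Mitochondrially encoded genes took 12.99% to 13.4% in the first 3 SD livers, 17.0% to 17.4% in the other 2, and 14.1% to 16.2% in the EHBR livers. What sets samples 4 and 5 apart is not in the labels, and its part in the results was not tested. The hepatocyte product Alb stood at 90147 ± 10452 TPM in SD and 110309 ± 5865 TPM in EHBR.

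Of the 21 tested collagens and enzymes, 1 was higher in EHBR, Col4a4, and none was lower (limma, adjusted p under 0.05). Col4a4 reached the level for testing through the EHBR samples alone, so it could be tested only because it was high in them. Of all tested genes 5.45% were called in either direction and 3.82% as higher, a share close to that of the members. An unadjusted p under 0.05 was reached by 6 of the 21, Col4a4, Plod3, Col4a1, Col4a2, Col4a5 and Loxl2, each with a positive difference, and by 20.9% of all tested genes. Of these 6, 5 missed the adjusted threshold. The median member was higher by 0.31 and the median of all tested genes by 0.15, and 19 of the 21 members had a positive difference against 73.1% of all genes. Centring each sample on its median moved the median of all genes from 0.15 to -0.02 and that of the members to 0.14, with 18 members positive. Among samples 1 to 3 of both strains, 14 members were positive and their median was 0.08, beside 0.07 for all genes. Leaving out only SD samples 4 and 5 sets SD samples 1 to 3 against all 5 EHBR samples, an unbalanced comparison. It gave 9 positive members, a median of -0.04 against 0.03 for all genes, and no call by limma, with 4 members at an unadjusted p under 0.05 (19.9% of all genes).

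**Figure D1:**
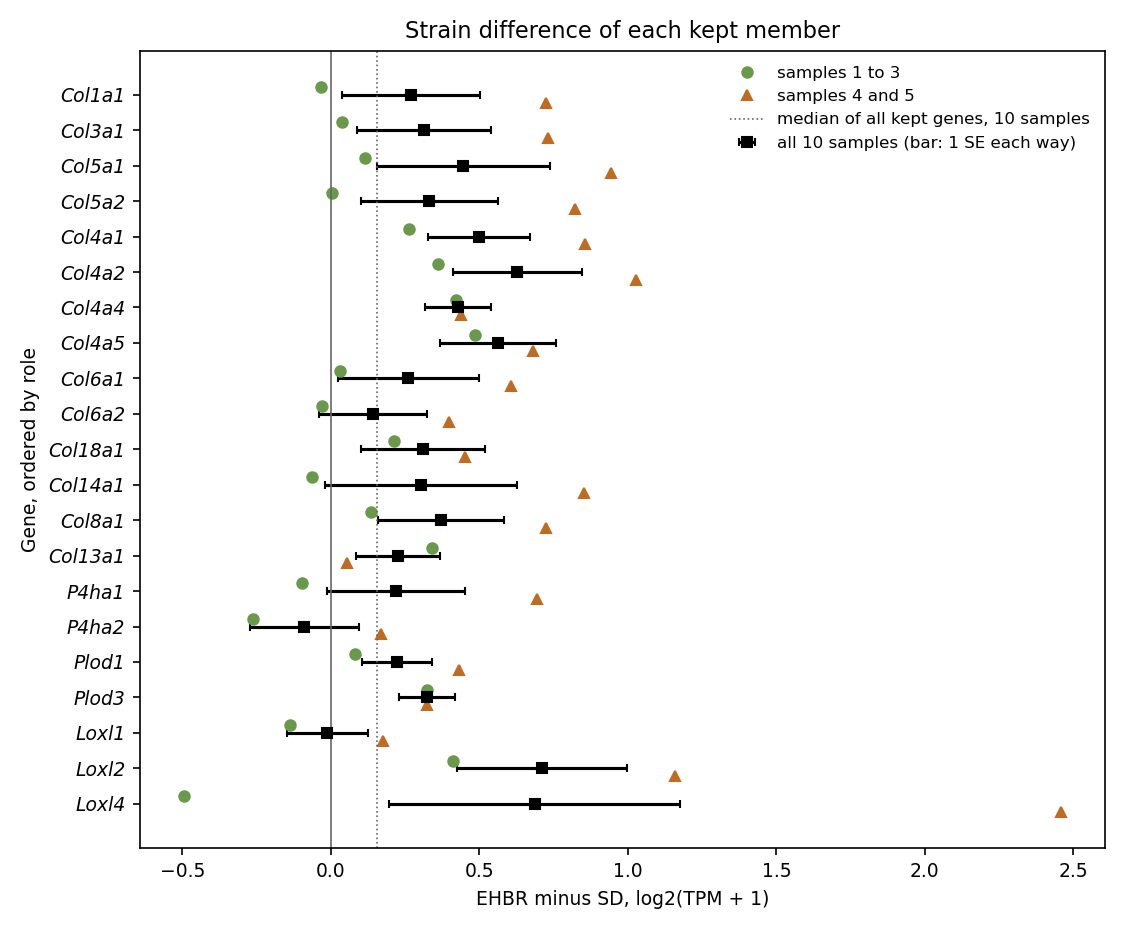
Strain difference (EHBR minus SD, log2(TPM + 1)) of the 21 tested genes, ordered by role: squares with 1 standard error from all 10 samples, circles from samples 1 to 3 and triangles from samples 4 and 5; the dotted line is the median of all tested genes, 0.15. Col4a4 and Plod3 have nearly equal differences in both parts, while Loxl4 goes from -0.50 to 2.46.

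Type IV chains form the sheet-like networks of basement membranes. Their median difference was 0.53, with 0.39 among samples 1 to 3 and 0.77 among samples 4 and 5. The genes lie in head-to-head pairs, and 4 of the 6 chains were tested. Col4a1, on chromosome 16 from 83522162 to 83632153 in build rn6, measured 14.0, 14.8, 16.4, 9.18 and 8.54 TPM in SD samples 1 to 5 and 18.4, 18.9, 17.4, 17.2 and 16.4 TPM in EHBR. Every EHBR value lay above every SD value, and SD samples 4 and 5 were the lowest. Its difference was 0.50 (SE 0.17, adjusted p = 0.125, limma), with 0.26 among samples 1 to 3 and 0.86 among samples 4 and 5.

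Col4a2, its partner chain in the same trimer, lies on chromosome 16 from 83387364 to 83438561. It measured 9.02, 8.37, 11.9, 5.23 and 4.69 TPM in SD and 10.6, 14.5, 13.2, 11.7 and 10.6 TPM in EHBR. The strains overlapped only through SD sample 3. The difference was 0.63 (SE 0.22, adjusted p = 0.127, limma), 0.36 in samples 1 to 3 and 1.03 in samples 4 and 5. Within samples 4 and 5 alone, Col4a1 and Col4a2 both passed the test (adjusted p = 0.0432 and 0.0397, limma), and in samples 1 to 3 neither did (0.165 and 0.244). The test of whether the difference itself changed between the parts gave adjusted p = 0.104 for Col4a1 and 0.183 for Col4a2 (limma).

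Col4a4, a chain of the mature basement membrane of kidney and other specialised sites, was a low-level gene, with 69 to 141 reads in a sample. It lies on chromosome 9 from 88232455 to 88357182. SD samples had 0.540, 0.755, 0.739, 0.767 and 0.588 TPM and EHBR samples 1.18, 1.38, 1.17, 1.119 and 1.43 TPM. Only the EHBR samples reached 1 TPM, the level for testing. All 5 EHBR samples stood above all SD samples, as for Col4a1 and Plod3 among the members. Such a gap was seen for 6.45% of all tested genes, and for 8.47% when EHBR below SD is counted too. In Col4a4 the samples numbered 4 and 5 were not set apart in either strain. The difference was 0.43 (SE 0.11, adjusted p = 0.0467, limma), 0.42 in samples 1 to 3 and 0.44 in samples 4 and 5. On the recovered reads, which need no added 1 TPM, limma voom gave 0.79 (adjusted p = 0.00998). The call was lost when any 1 sample was left out (adjusted p from 0.0619 to 0.129) and when samples were centred on their medians (0.26, adjusted p = 0.356). Strain differences rose with gene length across the 11044 genes with a length (Spearman's rho 0.255, a description, since genes are not replicates). Col4a4 is long, at 10929 bases, and with the length trend removed its difference was 0.18 (adjusted p = 0.613, limma).

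Col4a5, on the X chromosome, measured 1.25, 2.84, 2.76, 1.29 and 1.33 TPM in SD and 3.19, 3.83, 3.41, 2.35 and 3.10 TPM in EHBR. Of the EHBR samples, 4 exceeded the highest SD sample, and here SD sample 1 sat with samples 4 and 5. The difference was 0.56 (SE 0.19, adjusted p = 0.127, limma). Its neighbour Col4a6 and the neighbour of Col4a4, Col4a3, fell below the level for testing, with at most 0.164 and 0.192 TPM in any sample. So in the pairs Col4a3 with Col4a4 and Col4a5 with Col4a6, 1 gene of each was detected well above the other.

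The regions before the starts of these genes are shown because the chains come in pairs that share them. In RefSeq (build GRCr8) the starts of Col4a1 and Col4a2 are 76 bases apart, those of Col4a3 and Col4a4 412 bases, and those of Col4a5 and Col4a6 1414 bases. In the rn6 gene models of the files, the Col4a1 and Col4a2 models are 83600 bases apart and the Col4a3 and Col4a4 models 373. Whether the Col4a1 and Col4a2 models in the files lack sequence at their starts was not tested, and their TPM, reads and ratios are those of the models as given. Capitals mark GC boxes (GGGCGG on either strand). CCAAT was also searched on either strand and would be in capitals too, and the motifs do not overlap each other in these windows. The first line is the whole stretch between the starts of Col4a2 and Col4a1 on chr16:84885521-84885596, read on the plus strand toward Col4a1. The others are the 100 bases before the start of Col4a4 (chr9:91323578-91323677, minus strand) and of Col4a5 (chrX:109907259-109907358, plus strand).
Col4a2 to Col4a1: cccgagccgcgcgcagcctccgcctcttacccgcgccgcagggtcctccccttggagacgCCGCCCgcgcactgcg
Col4a4: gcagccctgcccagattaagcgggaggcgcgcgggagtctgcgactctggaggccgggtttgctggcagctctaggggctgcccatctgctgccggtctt
Col4a5: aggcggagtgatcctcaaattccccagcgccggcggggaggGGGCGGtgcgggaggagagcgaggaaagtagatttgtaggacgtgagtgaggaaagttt

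The stretch shared by Col4a1 and Col4a2 held 1 GC box, the Col4a5 window 1 and the Col4a4 window none. Among the 16 tested members with a RefSeq promoter entry, 9 had a GC box within 100 bases before the start, against 21.6% of 33469 such windows in the table. CCAAT was found in none of the 16, against 17.1% of all windows. The windows of the whole table were not limited to tested genes or to 1 per gene, as those of the members were, so the shares are of unlike sets. These letter matches describe the windows and were not tested against the measurements.

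**Figure D2:**
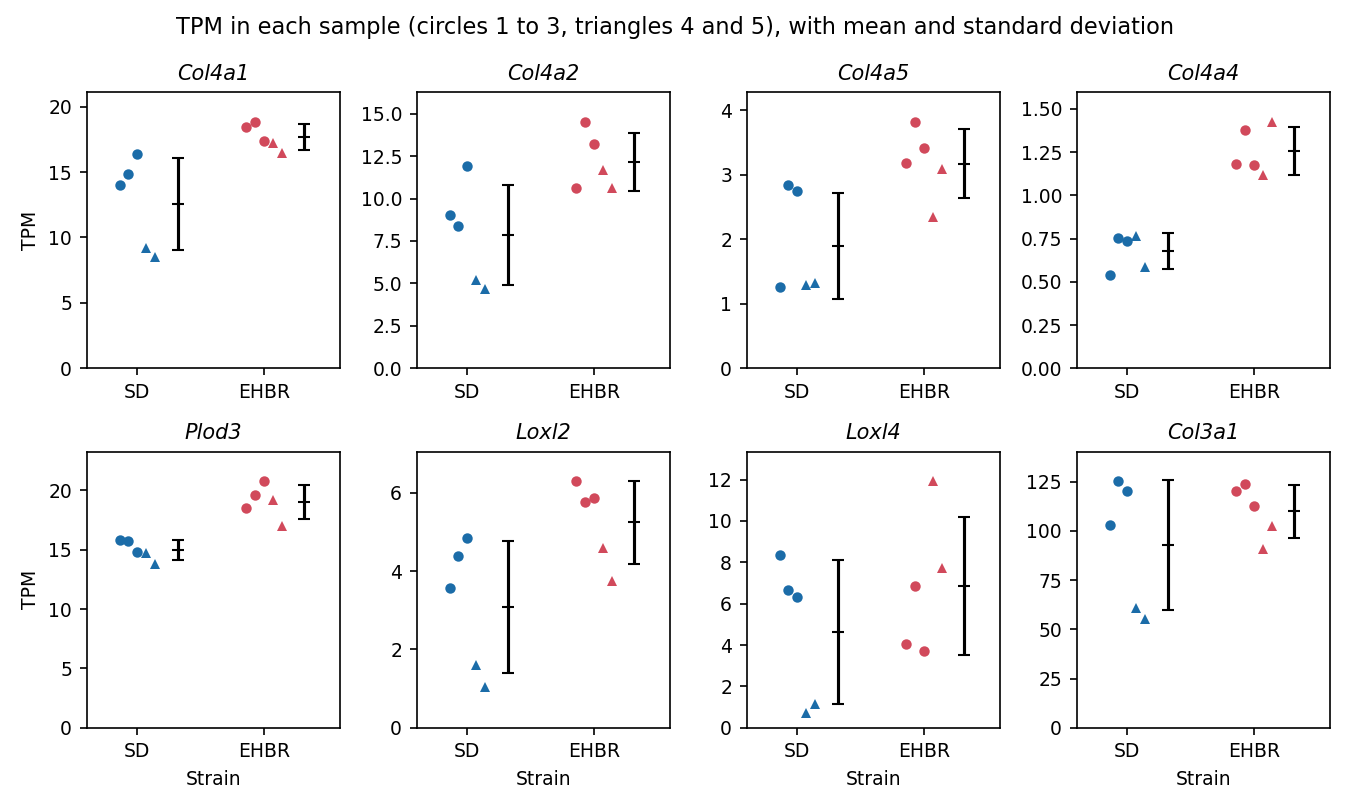
TPM of 8 members in each sample, with SD in blue and EHBR in red, circles for samples 1 to 3 and triangles for samples 4 and 5; the black bars are the mean and 1 standard deviation each way. Col4a1, Col4a4 and Plod3 do not overlap between strains; Loxl4 is lowest in SD samples 4 and 5 and highest in EHBR sample 4.

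Fibrillar collagens, the main chains of scar tissue, did not pass the test between strains. Col3a1, the most abundant fibrillar chain among the members, measured 103, 125, 120, 60.6 and 55.1 TPM in SD and 120, 124, 113, 90.6 and 103 TPM in EHBR. SD samples 4 and 5 were the lowest, and SD samples 1 to 3 covered the same range as EHBR samples 1 to 3. The difference over 10 samples was 0.31 (SE 0.23, adjusted p = 0.444, limma), made of 0.04 among samples 1 to 3 and 0.73 among samples 4 and 5 (adjusted p = 0.0475 in the latter, limma).

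Col1a1, the major chain of type I collagen, measured 7.88, 8.69, 9.49, 4.34 and 3.47 TPM in SD and 8.85, 8.37, 8.12, 6.90 and 7.26 TPM in EHBR. Its difference was 0.27 (SE 0.23, adjusted p = 0.517, limma), -0.03 in samples 1 to 3 and 0.73 in samples 4 and 5. The type V chains Col5a1 and Col5a2, which regulate fibril diameter, behaved likewise. Col5a1 went from 4.58 ± 2.33 TPM in SD to 6.07 ± 1.25 TPM in EHBR and Col5a2 from 3.13 ± 1.43 to 3.94 ± 0.330 TPM, with differences of 0.45 and 0.33 overall and 0.11 and 0.00 among samples 1 to 3. None of the 4 passed with a term for the 2 parts of the series either (adjusted p from 0.0875 to 0.215, limma). The other 6 fibrillar chains, among them the cartilage chain Col2a1, were below the level for testing.

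The ratio of Col3a1 to Col1a1 in TPM was steadier than either gene: 13.05, 14.4, 12.7, 13.95 and 15.9 in SD and 13.6, 14.8, 13.9, 13.1 and 14.1 in EHBR. A ratio within a sample does not depend on how samples were scaled. The ratio of Col4a1 to Col1a1 was 1.77, 1.71, 1.73, 2.11 and 2.46 in SD and 2.08, 2.25, 2.14, 2.50 and 2.26 in EHBR. Among samples 1 to 3 the EHBR ratios were all above those of SD, and SD samples 4 and 5 fell within the EHBR range. These ratios were formed after the single values had been seen and are given without a test.

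Col18a1, which encodes a basement membrane collagen whose end fragment is endostatin, was the most abundant member. It measured 182, 196, 212, 115 and 111 TPM in SD and 225, 229, 228, 147 and 164 TPM in EHBR, on 7221 to 12215 reads. In both strains samples 4 and 5 were the lowest, and within each part the EHBR samples lay above the SD samples. EHBR lay so above SD for 20.4% of all tested genes in samples 1 to 3 and for 53% in samples 4 and 5. The difference was 0.31 (SE 0.21, adjusted p = 0.416, limma), 0.21 in samples 1 to 3 and 0.45 in samples 4 and 5, and it passed with a term for the parts (adjusted p = 0.0168, limma). Col18a1 and Col3a1 together made up 59.6% to 66.6% of the summed TPM of the 52 members.

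Type VI collagen forms beaded filaments around cells. Its chain Col6a1 measured 17.0, 18.0, 18.7, 8.87 and 8.15 TPM in SD and 19.7, 17.9, 17.4, 13.3 and 13.6 TPM in EHBR, and Col6a2 measured 15.5, 15.5, 15.9, 9.96 and 8.37 TPM in SD and 15.7, 14.9, 15.4, 12.03 and 12.7 TPM in EHBR. Samples 4 and 5 were the lowest in both strains. Neither passed the test, at 0.26 and 0.14 (adjusted p = 0.538 and 0.666, limma), and the Col6a2 difference was -0.03 once samples were centred on their medians. The fibril-associated chain Col14a1 measured 9.45, 11.04, 13.5, 4.99 and 2.88 TPM in SD and 11.1, 12.3, 8.97, 7.501 and 7.91 TPM in EHBR (difference 0.30, SE 0.32, adjusted p = 0.601, limma). It too was lowest in SD samples 4 and 5.

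The transmembrane chain Col13a1 measured 2.25, 2.64, 2.996, 3.13 and 2.87 TPM in SD and 3.49, 2.75, 4.69, 3.01 and 3.29 TPM in EHBR, so samples 4 and 5 were not low. Its difference was 0.23 (SE 0.14, adjusted p = 0.383, limma), larger among samples 1 to 3 (0.34) than among samples 4 and 5 (0.05). Col8a1, a short-chain collagen of vessel walls, had 0.0667 to 1.67 TPM on 4 to 70 reads and did not pass (0.37, adjusted p = 0.340, limma).

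**Figure D3:**
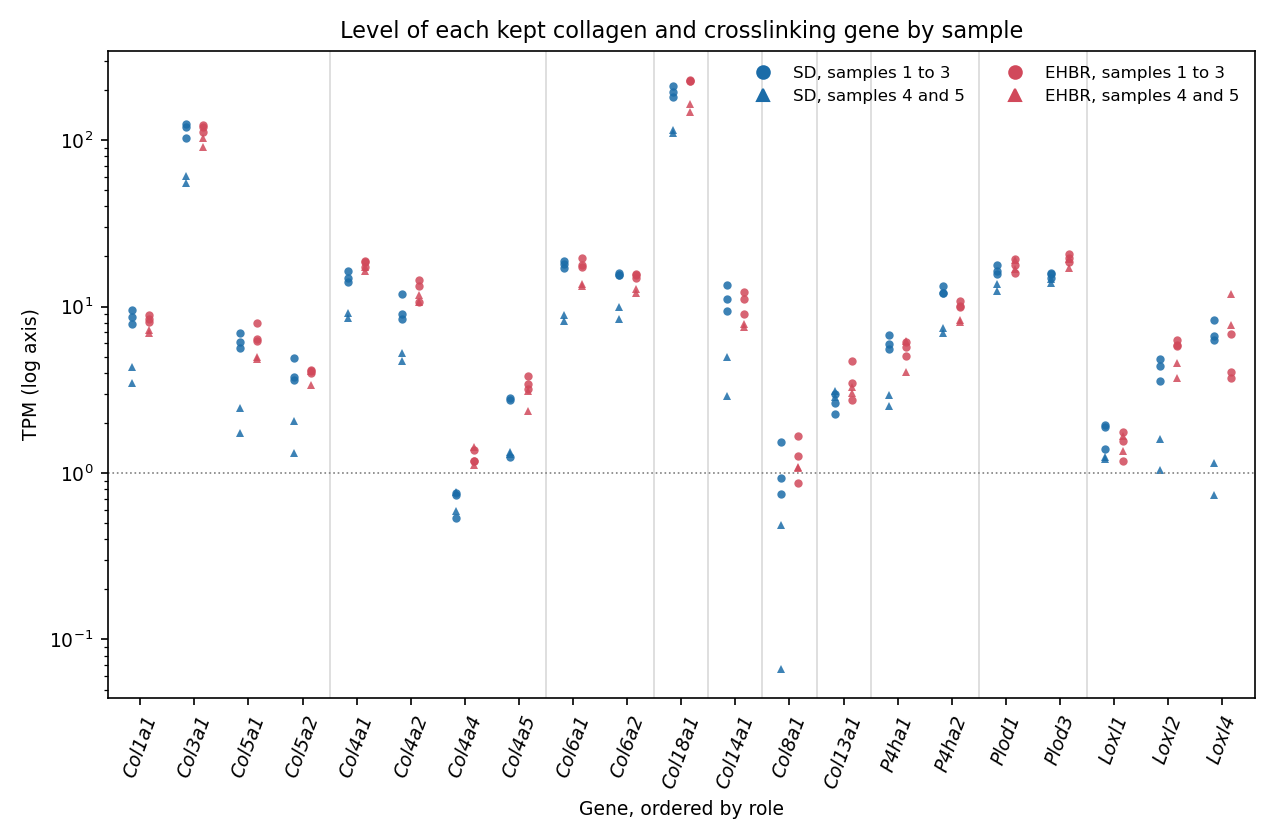
TPM on a log axis of the 21 tested genes in each sample, with SD to the left (blue) and EHBR to the right (red) of each gene, circles for samples 1 to 3 and triangles for samples 4 and 5; grey lines separate the roles and the dotted line is 1 TPM. Col18a1 and Col3a1 stand highest, and the SD triangles are the lowest points for 17 of the 21 genes.

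Among the hydroxylases, Plod3, which both hydroxylates and glycosylates collagen lysines, differed most evenly. It measured 15.8, 15.7, 14.8, 14.7 and 13.8 TPM in SD and 18.5, 19.6, 20.8, 19.2 and 17.0 TPM in EHBR. The strains did not overlap, and the parts of the series were alike, with differences of 0.33 and 0.32. Over 10 samples the difference was 0.32 (SE 0.09, adjusted p = 0.0742, limma), which missed the threshold and passed it with a term for the parts (adjusted p = 0.0150, limma). Plod3 overlaps Znhit1 on the opposite strand, whose mean was 24.9 TPM in SD and 26.5 TPM in EHBR. The sources do not state if reads were counted by strand, so reads of these genes may be mixed and the Plod3 values are uncertain.

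Plod1, the lysyl hydroxylase of helical lysines, measured 17.8, 16.3, 15.8, 13.6 and 12.4 TPM in SD and 15.9, 19.3, 17.8, 19.0 and 16.8 TPM in EHBR. The difference was 0.22 (SE 0.12, adjusted p = 0.302, limma), and the strains overlapped in samples 1 to 3. The prolyl hydroxylase subunit P4ha1 measured 5.56, 6.79, 5.95, 2.93 and 2.53 TPM in SD and 5.75, 5.08, 6.09, 6.22 and 4.02 TPM in EHBR (difference 0.22, SE 0.23, adjusted p = 0.597, limma).

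P4ha2, the other catalytic subunit, measured 12.1, 13.4, 12.1, 7.43 and 6.94 TPM in SD and 10.7, 10.02, 9.99, 8.29 and 8.11 TPM in EHBR. In samples 1 to 3 every EHBR value was below every SD value and in samples 4 and 5 above, at differences of -0.26 and 0.17. In samples 4 and 5, EHBR lay above SD in this way for 53% of all tested genes. The share of all genes with EHBR wholly below SD in samples 1 to 3 was not counted. How common that gap is therefore remains unknown. Neither difference passed (adjusted p = 0.168 and 0.474, limma), nor did the test of their change (adjusted p = 0.168, limma).

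The lysyl oxidases showed the widest spread. Loxl2, which crosslinks type IV collagen and fibrils, measured 3.57, 4.38, 4.84, 1.61 and 1.04 TPM in SD and 6.29, 5.77, 5.87, 4.58 and 3.74 TPM in EHBR. Within each part the EHBR samples were above the SD samples, which was so for 20.4% of all tested genes in samples 1 to 3 and 53% in samples 4 and 5. The difference was 0.71 (SE 0.29, adjusted p = 0.184, limma), 0.41 in samples 1 to 3 and 1.16 in samples 4 and 5 (adjusted p = 0.122 and 0.0466, limma). Loxl1, which is needed for elastic fibres, measured 1.90, 1.39, 1.95, 1.24 and 1.21 TPM in SD and 1.55, 1.76, 1.18, 1.67 and 1.36 TPM in EHBR and did not differ beyond its spread (-0.01, SE 0.14, adjusted p = 0.962, limma).

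Loxl4, a lysyl oxidase with scavenger-receptor domains, went in opposite directions in the 2 parts of the series. It lies on chromosome 1 from 261835992 to 261853495 in rn6, ending 1.70 Mb before the start of Abcc2. SD samples measured 8.34, 6.68, 6.32, 0.734 and 1.15 TPM and EHBR samples 4.06, 6.84, 3.73, 11.9 and 7.71 TPM, on 29 to 401 reads. In SD the samples 4 and 5 were the lowest of all 10, and in EHBR they were the highest of their strain. The difference was -0.50 among samples 1 to 3 (adjusted p = 0.222, limma) and 2.46 among samples 4 and 5 (adjusted p = 0.0151, limma).

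For Loxl4 the change of the strain difference between the parts was 2.95 (SE 0.36, adjusted p = 0.0115, limma). It was the 1 member of 21 called in that test, which called 0.271% of all genes in either direction and 0.208% in this one. The value stayed between 2.67 and 3.24 when each sample was left out, and the call was lost without SD sample 4 (adjusted p = 0.0501) or EHBR sample 4 (adjusted p = 0.0690). Over all 10 samples the 2 directions gave 0.69 (SE 0.49, adjusted p = 0.438, limma). The 100 bases before its RefSeq start (build GRCr8, chr1:251365578-251365677, minus strand), shown because this gene carries the largest change, hold 3 GC boxes in capitals.
Loxl4: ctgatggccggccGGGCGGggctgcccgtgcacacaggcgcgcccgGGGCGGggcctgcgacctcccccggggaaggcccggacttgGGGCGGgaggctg

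The low level in SD samples 4 and 5 was shared by most of the members. For 17 of the 21, both of these samples lay below all 8 others, which held for 37.5% of all tested genes. The exceptions were Col13a1, Col4a4, Col4a5 and Loxl1. In EHBR, samples 4 and 5 lay below samples 1 to 3 for 11 of 21 members, against 33.6% of all genes, and in SD for 18 of 21, against 51.4%. The summed TPM of the 52 members was 443 to 506 in SD livers 1 to 3 and dropped to between 253 and 276 in SD livers 4 and 5. It was 512 to 536 in EHBR samples 1 to 3 and 398 to 417 in EHBR samples 4 and 5.

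The test of a change in the strain difference between the parts called 1 of the 21 members, Loxl4. The median member differed by 0.08 among samples 1 to 3, beside 0.07 for all tested genes, and by 0.69 among samples 4 and 5, beside 0.27. The difference was larger among samples 4 and 5 for 19 of 21 members and for 69.3% of all genes. Among samples 1 to 3 limma called no member, where 6.51% of all genes were called and 4.35% as higher. An unadjusted p under 0.05 was reached by 6 of the 21, with positive differences for Plod3, Loxl2, Col4a4, Col18a1 and Col4a1 and a negative one for P4ha2, and by 22.7% of all genes. The corresponding counts were 15 of 21 among samples 4 and 5, beside 32.8% of all genes, and 13 of 21 in the test of the change between the parts, beside 20.3%. Among samples 4 and 5, with 2 samples a strain, 5 members were higher and none lower (Col3a1, Col4a1, Col4a2, Loxl2 and Loxl4), where 5.16% of all genes were called and 4.15% as higher. With a term for the parts, 7 members were higher and none lower (Col18a1, Col4a1, Col4a2, Col4a4, Col4a5, Loxl2 and Plod3), where 16.9% of all genes were called and 13.6% as higher. With that term and samples centred on their medians, the 3 called members were Col4a1, Col4a2 and Loxl2.

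**Figure D4:**
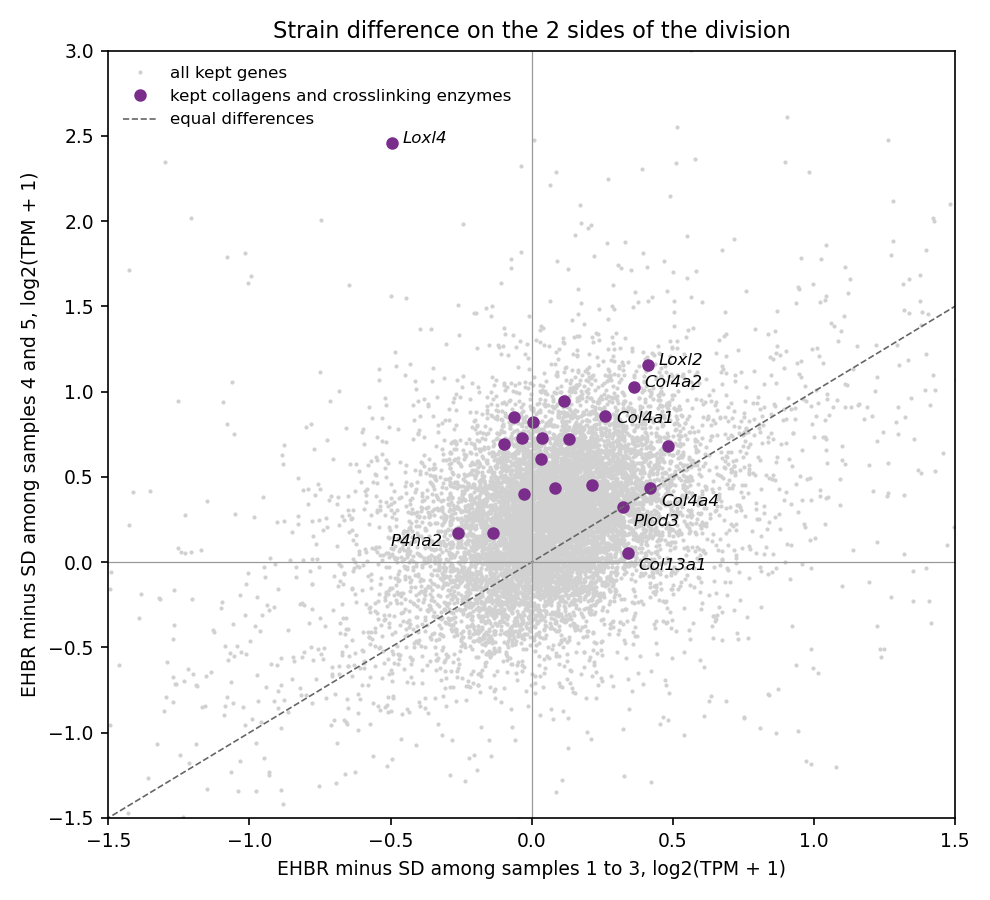
Strain difference among samples 4 and 5 (vertical) against samples 1 to 3 (horizontal), both EHBR minus SD in log2(TPM + 1), for all tested genes (grey, with 188 beyond the axes) and the 21 tested members (purple); the dashed line marks equal differences. Of the members, 19 lie above the line, and Loxl4 stands apart at -0.50 and 2.46.

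Without a term for the parts, no gene in the lists for making, processing, binding or degrading collagen passed the test. Of 202 symbols in 14 lists of related genes and cell type markers, 189 matched the files. In folding, modification and export, 13 genes were tested and none passed. The most abundant was P4hb, the shared subunit of prolyl hydroxylase, at 858 ± 157 TPM in SD and 891 ± 106 TPM in EHBR. None of 3 procollagen-processing genes passed, with the protease Bmp1 at 32.8 ± 2.88 and 33.8 ± 3.73 TPM. Of collagen receptors, the integrin genes Itga1 and Itgb1 were tested and neither passed. Itgb1 averaged 34.2 ± 7.13 TPM in the SD livers and 45.9 ± 3.09 TPM in the EHBR livers (0.44, adjusted p = 0.1003, limma). None of 9 collagen-degrading enzymes and inhibitors passed, the most abundant being the metalloproteinase Mmp19 (0.36, adjusted p = 0.242, limma). At an unadjusted p under 0.05, limma gave 4 of the 13 folding and export genes (the COPII coat genes Sec13, Sec23a, Sec24d and Sec31a), none of the 3 processing genes, both receptors and 1 of the 9 degrading genes and inhibitors (Timp2), all with positive differences, where 20.9% of all genes reached that p. With a term for the parts, 4 of the 13 folding and export genes, both receptors and 2 of the 9 degrading genes and inhibitors were called, all higher, beside 13.6% of all genes called higher.

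Among 17 non-collagen matrix glycoproteins, 1 rose, Thbs1, a matricellular protein that can activate TGF-beta. It measured 0.398, 0.233, 0.386, 0.119 and 0.0966 TPM in SD and 2.97, 1.98, 1.56, 1.13 and 1.32 TPM in EHBR. All EHBR samples were above all SD samples, with a difference of 1.13 (SE 0.18, adjusted p = 0.00323, limma). Thbs1 reached the level for testing through the EHBR samples alone, so it could be tested only because it was high there. At an unadjusted p under 0.05, limma gave 5 of the 17 (Fbln5, Lamb2, Lamc1, Nid1 and Thbs1), beside 20.9% of all genes. All 5 had positive differences. Lamb2 reached 1 TPM in all EHBR samples but in SD samples 2 and 3 only. None of 5 matrix proteoglycans passed, with 2 (Dcn and Prelp) at an unadjusted p under 0.05 and positive differences. The most abundant, biglycan (Bgn), was at 88.9 ± 31.3 TPM in SD and 91.8 ± 9.36 TPM in EHBR, with differences of -0.19 among samples 1 to 3 and 0.58 among samples 4 and 5. Of 16 genes of TGF-beta and PDGF signalling, 1 rose, the co-receptor Tgfbr3, from 2.32 ± 0.565 to 3.88 ± 0.404 TPM (0.57, SE 0.14, adjusted p = 0.0417, limma). The median differences of these 3 lists were 0.20, 0.21 and 0.06, beside 0.15 for all genes, of which 3.82% were called higher. With a term for the parts, 5 of the 17, 1 of the 5 and 1 of the 16 genes were called, all higher. That term called 13.6% of all genes as higher.

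Markers of the cells that make matrix did not move as 1 group. None of 12 stellate cell markers passed, also at an unadjusted p under 0.05. Their summed TPM was 407 to 443 in SD livers 1 to 3 and 380 to 436 in SD livers 4 and 5, with 411 to 436 and 406 to 422 in the corresponding EHBR livers. Of 7 activated stellate cell and myofibroblast markers none passed, with the most abundant, Vim, at 27.7 ± 8.14 and 31.2 ± 6.90 TPM and a median difference of -0.05; Tagln had an unadjusted p under 0.05 and a negative difference. Of the stellate list Gfap, Nes and Ngfr, and of the activated list Acta1, Actg2 and Cnn1, were below the level for testing. With a term for the parts, no stellate cell marker was called, and 1 of the 7 activated markers was called, lower in EHBR. The part of these cells in the collagen levels was not tested.

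Of 10 tested endothelial markers, 3 rose in EHBR and none fell, beside 3.82% of all genes called higher: the VEGF receptor gene Kdr from 8.17 ± 1.10 to 13.4 ± 1.48 TPM (0.66, adjusted p = 0.00916, limma), and the scavenger receptor genes Stab1 and Stab2 from 1.04 ± 0.338 to 2.37 ± 0.494 TPM and from 2.38 ± 0.646 to 5.34 ± 0.6996 TPM. Stab1 reached 1 TPM in all EHBR samples but in SD samples 2 and 3 only, so it could be tested only because it was high in EHBR. With a term for the parts, 6 of the 10 markers were called higher, beside 13.6% of all genes. Summed over the endothelial list, SD livers 1 to 3 had 102 to 126 TPM and SD livers 4 and 5 had 108 to 122 TPM. The corresponding EHBR sums were 134 to 174 TPM and 135 to 158 TPM. Of the 10 markers, 1 (Clec4g) was lower in both SD livers 4 and 5 than in SD livers 1 to 3. Their part in the type IV collagen levels was not tested. In bulk tissue, more cells of a type and more RNA per cell cannot be told apart.

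In the list of portal fibroblast, smooth muscle and mesothelial markers, 2 of 5 rose, beside 3.82% of all genes called higher. The other 3, Entpd2, Msln and Upk3b, did not pass, with differences of -0.07, 0.01 and -0.11. The list median was 0.01, beside 0.15 for all genes. Dpt, which encodes the matrix protein dermatopontin, measured 258, 305, 288, 176 and 221 TPM in SD and 446, 461, 463, 398 and 382 TPM in EHBR (0.81, adjusted p = 0.00703, limma). Gpm6a, a membrane glycoprotein gene, went from 1.99 ± 2.38 to 13.2 ± 2.097 TPM (2.50, adjusted p = 0.00193, limma), with SD sample 2 at 6.22 TPM and the other SD samples at 0.683 to 1.31 TPM. As only SD samples 2 and 3 reached 1 TPM, Gpm6a too could be tested only because it was high in EHBR. Thy1, Gli1, Pi16, Cd34, Myh11 and Wt1 in that list were below the level for testing. None of 3 tested cholangiocyte markers passed, and Krt7, Sox9 and Cftr were below the level for testing. None of 9 Kupffer cell and macrophage markers passed, with the complement gene C1qa at 115 ± 13.4 and 116 ± 36.7 TPM, and none of 8 hepatocyte markers did. At an unadjusted p under 0.05, limma gave 1 cholangiocyte marker with a negative difference (Epcam), and 2 Kupffer cell markers (Clec4f and Csf1r) and 2 hepatocyte markers (Cps1 and Tf) with positive ones. Of all genes, 20.9% reached that p. With a term for the parts, 1 cholangiocyte marker was called lower, 2 hepatocyte markers were called higher and no Kupffer cell marker was called. That term called 16.9% of all genes.

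**Figure D5:**
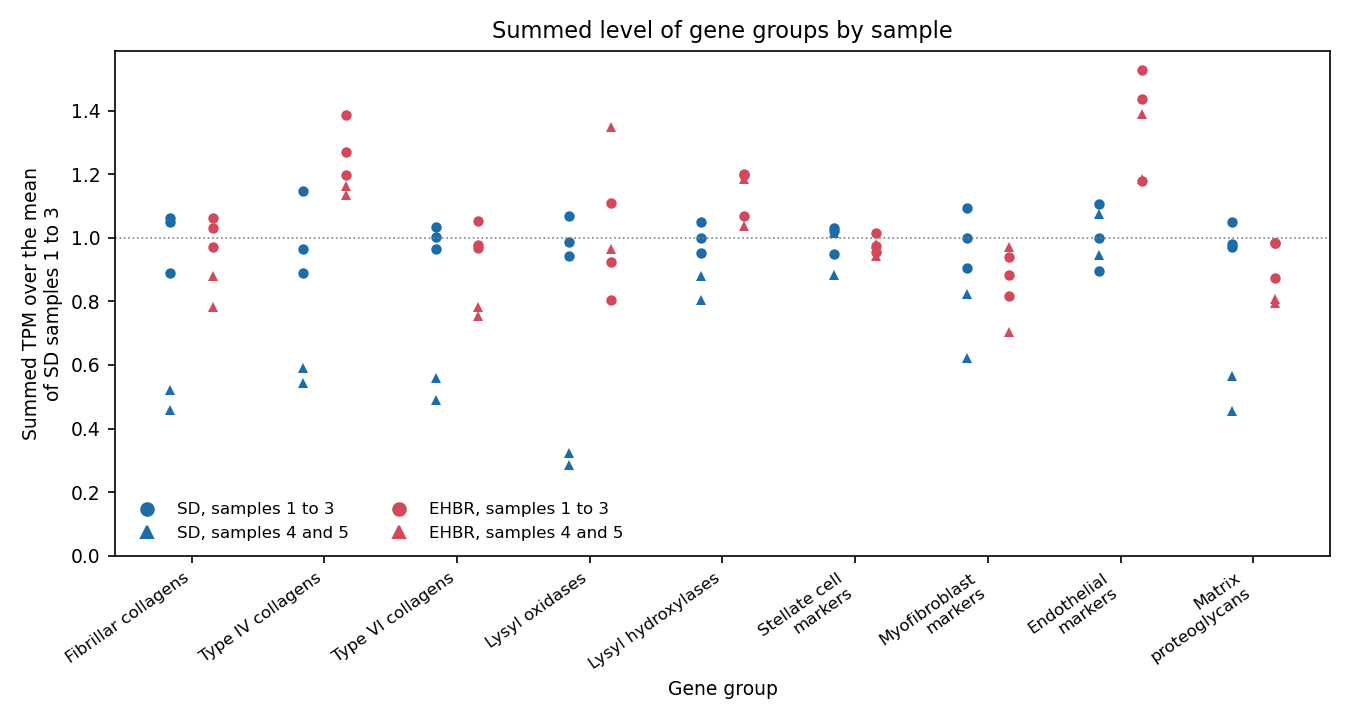
Summed TPM of 5 member groups and 4 other lists in each sample, divided by the mean of SD samples 1 to 3 (dotted line at 1), with SD in blue, EHBR in red, circles for samples 1 to 3 and triangles for samples 4 and 5. The SD triangles are low for the collagens, lysyl oxidases and proteoglycans. For the endothelial sum they lie among the SD circles, and all EHBR points lie above all SD points.

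The other 31 members were below the level for testing. Of these, 20 averaged under 0.1 TPM over the 10 samples, 18 had at most 10 reads in every sample, and 4 (Col2a1, Col9a1, Col19a1 and Col26a1) were listed at 0 throughout. Nearest to the level on the tested side were Col8a1 with 0.753 ± 0.544 TPM in SD and 1.19 ± 0.2998 TPM in EHBR, Col4a4, and Loxl1. Nearest below it were Lox, the founding lysyl oxidase, with 0.775 ± 0.508 TPM in SD and 0.816 ± 0.249 TPM in EHBR, Col27a1 with 0.981 ± 0.394 and 0.789 ± 0.166 TPM, and the lysyl hydroxylase Plod2 with 0.647 ± 0.235 and 0.624 ± 0.178 TPM. Loxl3, the fibril-associated chains Col12a1 and Col16a1, and the epidermal anchoring chain Col7a1 were also in this group. Col4a4 passed the level through the EHBR samples alone, so its place among tested genes already reflects its higher values there.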

How the data were processed

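Per the labels' protocols, TRIzol RNA from liver was poly(A)-selected and prepared with a kit that keeps strand. Tools listed in the submitters' processing notes were featureCounts 1.6.3, HISAT2 2.1.0, Trimmomatic 0.38 and FastQC 0.11.7, with build rn6. The authors deposited TPM, FPKM and upper-quartile FPKM for each gene and sample, and the sources do not state how these were derived from counts. TPM was the main unit, since the rule for the members uses it.

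Samples were grouped by title. The test was limma 3.58.1 (R 4.3.3) with the trend option on log2(TPM + 1), two-sided, for genes reaching 1 TPM in 5 or more of 10 samples, with a threshold of 0.05 after Benjamini-Hochberg adjustment. The labels do not say how the samples relate, so p-values reflect only how far they spread. A product term of strain and part (samples 1 to 3 or 4 and 5) tested whether strain differences changed. The strain test was also run on simulated data for 11083 genes, where it called 40% of those given a log2 change of 0.5 and 84% of those given 1. The simulated spread was that left after a term for the parts, and no difference between the parts was put in. In the real strain test that difference adds to the spread (for Col3a1 an SE of 0.23, against 0.13 with the term). The 40% and 84% may therefore be too high for genes that differed between the parts.

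Whole reads were recovered from upper-quartile FPKM for 18036 genes, within a tolerance of 0.002 reads, and made up 99.98% to 99.99% of the totals that FPKM implies. They give the depth and a voom alternative. Members, lists and the division of the samples were chosen with earlier results of these data known. Values were given by sample for called members, the 10 most abundant and every tested enzyme, and from each list for up to 3 called genes or the most abundant one (for 2 lists it is not reported here). Values by sample for Col1a1, Col4a5 and Col13a1 fall outside that rule and were added after their values were seen. Col12a1, Col16a1 and Col7a1, named among untested members, list genes named for an unadjusted p, and Entpd2, Msln and Upk3b were too. Gene positions are those of the files (rn6), and promoter sequences are from RefSeq (GRCr8), with 16 of 21 tested members matched by symbol. Python 3.11.15 with pandas 2.3.3, numpy 2.4.6 and matplotlib 3.10.9 was used for tables and figures.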

Additional observations from a re-analysis of the deposited data

Results flagged for a closer look

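The strain difference of Loxl4 differed between the parts of the series, by 2.95 on the log2 scale between samples 4 and 5 and samples 1 to 3 (adjusted p = 0.0115, limma with a product term). Col5a2 in EHBR had 1 sample apart from the other 4: sample 4 at 3.36 TPM, with the next at 3.99 TPM. Of 42 groups of 5 samples checked in this way, that was the only one set apart, and chance flags about 1 in 20.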

How the results depend on the processing

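With 1 member called in the main test, the count of called members was 0 with a pseudocount of 0.1 or 5, after quantile normalization, with samples centred on their medians, among samples 1 to 3, with the length trend removed and without SD samples 4 and 5. It was 5 among samples 4 and 5, 7 with a term for the parts, and 3 when that term was joined with median centring or with the length trend removed. With a mean of at least 5 TPM the 1 called member was Plod3 in place of Col4a4, which that filter leaves out. The fits with voom, the length trend, the joined settings, the removal of SD samples 4 and 5, and each sample left out of the product-term test were chosen after seeing the data. Leaving out each sample in turn gave 0 to 1 called members, the 1 being Col4a2 without SD sample 3, and 381 to 608 called genes of all kinds, beside 604 with all samples. The term for the parts gave 1878 called genes (1506 higher), 1191 (488 higher) after median centring and 1185 (572 higher) with the length trend removed. Of the 604, 70.03% were higher. That share was 58.8% with FPKM, 51.99% after quantile normalization, 45.8% with the length trend removed, 45.4% with upper-quartile FPKM and 42.05% after centring.

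The replicate block, with the shared sample number as a factor, gave 0 called members and 861 called genes. Deviations of same-numbered samples correlated at 0.0742 to 0.287 across genes, and 4 of 10 samples correlated best with their own number, so the numbers were not taken as pairs. The product-term count stayed at 1 after median centring, with FPKM and with the length trend removed, and was 0 to 1 when each sample was left out.

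Several differences that did not pass changed sign. Among samples 1 to 3 they were -0.063 for Col14a1, -0.034 for Col1a1, -0.029 for Col6a2, -0.50 for Loxl4 and -0.10 for P4ha1. Without SD samples 4 and 5, which leaves EHBR samples 4 and 5 in and so is unbalanced, they were -0.23 for Col14a1, -0.0059 for Col18a1, -0.12 for Col1a1, -0.082 for Col3a1, -0.046 for Col5a1, -0.040 for Col5a2, -0.13 for Col6a1, -0.15 for Col6a2, -0.14 for Loxl4 and -0.15 for P4ha1. Among samples 4 and 5 Loxl1 and P4ha2 were at 0.17. Col6a2 was at -0.065 with the length trend removed, with or without the term for the parts, -0.027 after median centring, likewise with or without that term, -0.022 after quantile normalization and -0.052 with upper-quartile FPKM. With single samples left out, Loxl1 ranged from -0.060 to 0.044 and P4ha2 from -0.21 to 0.0056. The cause of these changes was not tested. Counting error weighs most on the members with under 100 reads in at least 1 sample: Col4a4, Col4a5, Col5a2, Col8a1, Col13a1, P4ha1, Loxl1, Loxl2 and Loxl4.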
